A study of Rattus norvegicus with 40 samples.

Results

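Hippocampal gene expression was compared between F rats that had 750 ppm lead in the chow postnatally and F rats exposed to the same dose perinatally. The members were taken by the titles' sample numbers, 2821 to 2824 for the postnatal group and 1978 to 1981 for the perinatal group. That gave 8 arrays of the 40 in the series, 4 in each group, with all 29214 probe sets of each array. The animals given lead postnatally ate lead acetate chow between birth and postnatal day 45, and control chow after that. The animals exposed perinatally were born to dams that ate the lead chow from 10 days before breeding, stayed on it until weaning, and then ate control chow. All rats were killed at postnatal day 55, so both groups ended on control chow. The length of exposure and the time since its end also differed between the groups, and cannot be told apart from the window. The labelled F controls, 4 arrays, ate control chow throughout. Strain, litter and blood lead are not given in the labels, so several animals of a group may be littermates and the p-values measure only the spread between these samples. RNA from dissected hippocampus, 100 ng a sample, was hybridised to an Affymetrix rat gene array, and every value below is the authors' deposited log2 signal, on which a difference of 1 is a factor of 2.

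Lead is a divalent metal that crosses the placenta, passes into milk and, in place of calcium and zinc, binds proteins of synaptic signalling. The hippocampus, which forms spatial and episodic memory, matures across birth and weaning, and its pyramidal and granule neurons are rich in receptors for glucocorticoids, the adrenal steroids released in stress and at the start of the active phase of the day. Glucocorticoids enter cells, bind the receptors Nr3c1 and Nr3c2, and induce a known set of genes, among them Tsc22d3, Ddit4, Sgk1, Fkbp5 and the clock gene Per1.

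The 8 arrays were alike in overall signal. Their medians lay between 6.97 and 7.04, pairwise correlations across probe sets lay between 0.994 and 0.997, and replicates spread with a median SD of 0.102 in the postnatal and 0.103 in the perinatal group. The X-linked translation factor gene Eif2s3 read 11.62 to 11.77 on these arrays, above the 11.15 to 11.42 of the exposed males. Among hippocampal markers, Neurod6, a transcription factor gene of pyramidal neurons, read 11.59 to 11.68 on the 8 arrays, the kinase gene Camk2a 12.85 to 12.95 and the granule cell gene Prox1 9.75 to 9.91, and none of them was called. Sample numbers set a limit on all that follows. The perinatal arrays were numbered next to the controls and the postnatal arrays belonged to another range, so exposure window and number range cannot be told apart here. Labelled F control replicates 1 and 3 read 11.28 and 11.30 for Eif2s3, in the male range, so control values are those of the arrays labelled F control.

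Few probe sets were called between the 2 exposed groups. Of 29214 probe sets, 16 (0.0548%) had an adjusted p under 0.05 in limma's moderated test with Benjamini-Hochberg adjustment, 2 of them higher (0.00685%) and 14 lower (0.0479%) in the postnatal group. An unadjusted p under 0.05 was found for 1482 probe sets (5.07%). The 14 lower ones were 6 genes with a symbol of their own, 5 probe sets shared by major urinary protein (Mup) genes and 3 probe sets with no symbol. The 6 genes were Nat8f1, Cd99l2, Tsc22d3, Alb, Apoc3 and Apoh, 0.0414% of the 14506 genes tested, and no gene with a symbol was called higher. In all 16 the postnatal and perinatal arrays did not overlap, as in 3.9% of all probe sets and 4.28% of all genes. In 12 of the 16 the perinatal mean lay farther from the control mean than the postnatal mean did, and in 11 the means of the exposed groups lay on opposite sides of it. Against the labelled F controls, 4 probe sets (0.0137%) were called in the postnatal and 46 (0.157%) in the perinatal group, 2 comparisons that share those controls. Only the postnatal comparison with controls crossed number ranges, so the 2 counts are not alike in that respect. Fitted on the 8 arrays alone, without the spread of the other 8 groups, the test called 7 probe sets, 4 of them among the 16.

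The stretches before 3 of the called genes are shown because these genes bear on the groups described below: Alb for liver transcripts, Tsc22d3 for genes induced by glucocorticoids (1 of its 3 starts), and Nat8f1 for the largest difference of any called gene with a symbol. Each runs from 250 bases before to 50 after the gene's start, from RefSeq on build GRCr8, and 5 of the 6 called genes had such an entry; Apoc3 is named only. Both strands were searched for 3 motifs of 6 letters, and capitals mark a match. They were the core of the HNF1 motif of liver promoters (GTTAAT), the core of the glucocorticoid response element (AGAACA, which reads TGTTCT on the other strand) and the E-box of clock proteins (CACGTG). The Alb stretch, chr14:17906930-17907229 on the minus strand, held the HNF1 core 82 bases upstream of the start, letters found in 7.45% of 33469 promoters. The glucocorticoid core, found in 20.7% of promoters, was at none of the 3 starts of Tsc22d3. The printed start of Tsc22d3, chrX:109066340-109066639 on the minus strand, held the HNF1 core, as ATTAAC, 111 bases upstream. The Nat8f1 stretch, chr4:119900308-119900607 on the minus strand, held none of the 3, and neither did that of Apoh. Cd99l2, which is not in the glucocorticoid-induced list, held the glucocorticoid core at 218 and 126 bases upstream. The E-box was in 6.42% of promoters and in none of these, and of 18 glucocorticoid-induced genes with an entry, 2 held the glucocorticoid core. No matches overlapped, and a match is a run of letters and not a shown site of binding.
Alb: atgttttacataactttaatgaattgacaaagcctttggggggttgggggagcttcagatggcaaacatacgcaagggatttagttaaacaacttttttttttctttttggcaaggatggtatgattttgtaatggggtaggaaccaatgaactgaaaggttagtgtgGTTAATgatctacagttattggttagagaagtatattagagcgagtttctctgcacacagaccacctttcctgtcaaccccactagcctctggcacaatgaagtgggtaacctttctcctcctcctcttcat
Tsc22d3: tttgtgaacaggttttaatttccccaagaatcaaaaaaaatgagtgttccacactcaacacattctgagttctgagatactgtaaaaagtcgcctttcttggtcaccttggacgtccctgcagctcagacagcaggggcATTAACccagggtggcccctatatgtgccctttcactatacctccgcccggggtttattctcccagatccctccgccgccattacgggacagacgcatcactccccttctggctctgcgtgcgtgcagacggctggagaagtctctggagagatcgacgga
Nat8f1: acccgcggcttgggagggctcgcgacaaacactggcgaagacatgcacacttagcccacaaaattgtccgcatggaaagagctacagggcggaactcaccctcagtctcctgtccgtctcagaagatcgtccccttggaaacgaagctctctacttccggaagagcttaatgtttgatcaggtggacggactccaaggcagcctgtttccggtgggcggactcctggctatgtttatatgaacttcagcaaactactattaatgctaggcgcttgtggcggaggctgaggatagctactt

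Nat8f1, a rodent member of the N-acetyltransferase 8 family, whose enzymes work in the endoplasmic reticulum, differed most among the called genes with a symbol. Its log2 signal was 6.27, 6.48, 6.33 and 6.44 on the postnatal arrays, against 7.47, 7.70, 7.46 and 7.56 on the perinatal arrays and 6.93, 7.06, 7.02 and 6.87 on the labelled F controls. The 3 groups did not overlap, with controls between the exposed groups. Postnatal minus perinatal was -1.17 (SE 0.13, limma adjusted p = 8.43e-07), 2.25-fold lower. The perinatal mean was 0.58 above the control mean (adjusted p = 0.0492) and the postnatal mean -0.59 from it (adjusted p = 0.18), comparisons that share the same controls. Nat8b, a paralogue of the same family, leaned the other way, with 6.83 to 6.98 on postnatal and 6.52 to 6.70 on perinatal arrays, a difference of 0.32 that did not pass (SE 0.08, adjusted p = 0.258). Members of the family are similar in sequence, so probes may read more than a single one of them. A probe set with no symbol, 10863690, was also lower postnatally, at 9.15 to 9.44 against 9.78 to 9.95, by -0.59 (SE 0.09, adjusted p = 0.000247). Nat8f1 and 10863690 stayed called in the fit of the 8 arrays alone.

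Cd99l2, which encodes a membrane glycoprotein used by leukocytes to cross vessel walls, was called lower with a narrow spread in each group. The postnatal arrays read 10.52, 10.45, 10.46 and 10.48, the perinatal arrays 11.02, 10.90, 10.94 and 10.96, and the labelled F controls 10.83, 10.88, 10.76 and 10.77. All postnatal values lay below all controls, and all perinatal values above them. The difference was -0.48 (SE 0.08, adjusted p = 0.00243), with SDs of 0.03 in the postnatal and 0.05 in the perinatal group (n = 4 each). Against controls, the postnatal group differed by -0.33 (adjusted p = 0.3) and the perinatal group by 0.15 (adjusted p = 0.909), and neither passed. Without perinatal replicates 3 and 4 the difference stayed at -0.48, with an adjusted p of 0.0724.

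Of genes induced by glucocorticoids, 1 was called lower after postnatal than after perinatal exposure, and most others lay below 0. Tsc22d3, which encodes the glucocorticoid-induced leucine zipper protein that damps inflammatory signalling, read 8.01, 7.88, 7.87 and 8.15 on the postnatal arrays, against 8.40, 8.56, 8.65 and 8.69 on the perinatal arrays and 8.10, 7.97, 7.99 and 7.97 on the labelled F controls. The postnatal values overlapped the controls, and the perinatal values lay above both. The difference was -0.60 (SE 0.11, adjusted p = 0.0069). That call was lost without perinatal replicate 4 (adjusted p = 0.0581), without postnatal replicate 2 (0.0573) or 3 (0.0599), in the 8 arrays alone (0.0513), and without perinatal replicates 3 and 4 together (-0.50, adjusted p = 0.416).

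Of 19 measured glucocorticoid-induced genes, 18 lay below 0, with a median of -0.37, against 7802 of 14506 genes and a median of -0.01 overall. An unadjusted p under 0.05 was reached by 14 of the 19, against 5.31% of all genes. Against the labelled F controls, 18 of the 19 lay above 0 in the perinatal group (median 0.37). There 5 were called higher, against 0.152% of all genes. In the postnatal group 12 of the 19 lay above 0 (median 0.11) and none was called. Those comparisons share the controls, and only the postnatal one crossed number ranges. Without perinatal replicates 3 and 4, 17 of the 19 lay below 0. These genes are induced together and were read on the same 8 arrays, so they are not 19 separate observations. The gene lists were also chosen with earlier results of these data known, so list counts here and below describe and do not test. Ddit4, which encodes an inhibitor of the growth kinase complex mTORC1, read 8.93, 8.86, 8.94 and 8.75 postnatally and 9.13, 9.07, 9.49 and 9.45 perinatally. Those groups did not overlap, and the difference of -0.41 missed the threshold (SE 0.09, adjusted p = 0.0516). Per1, a clock gene with a glucocorticoid-responsive promoter, read 9.31, 9.15, 9.42 and 9.36 postnatally and 9.59, 9.68, 9.77 and 9.82 perinatally, a difference of -0.41 (SE 0.09, adjusted p = 0.0898). Its labelled F controls, at 9.77, 9.50, 9.19 and 9.50, spanned both groups.

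Sgk1, a kinase that sets sodium channel and transporter levels, differed by -0.50 (SE 0.15, adjusted p = 0.446) and Fkbp5, a co-chaperone that lowers receptor sensitivity, by -0.26 (SE 0.10, adjusted p = 0.817). Gpd1, the cytosolic glycerol phosphate dehydrogenase, had the lowest difference in the list, -0.66 (SE 0.20, adjusted p = 0.452), at 9.98 to 10.52 postnatally against 10.72 to 10.95 perinatally and 9.64 to 10.02 in the labelled F controls. Slc19a3, a thiamine transporter, differed by -0.50 (adjusted p = 0.739) and Hif3a, of the hypoxia-inducible factor family, by -0.41 (adjusted p = 0.698). None of these 5 passed. Lcn2, an iron-carrier binding protein of inflammation, was the 1 member above 0, at 0.07. The receptors themselves were not called: the mineralocorticoid receptor gene Nr3c2 averaged 11.24 ± 0.05 postnatally and 11.05 ± 0.05 perinatally (SD, n = 4 each), a difference of 0.19 (SE 0.06, adjusted p = 0.485), and the glucocorticoid receptor gene Nr3c1 differed by 0.04 (SE 0.06). Whether fewer cells of a type or less RNA per cell underlies any of these differences cannot be told apart in whole hippocampus.

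**Figure D1:**
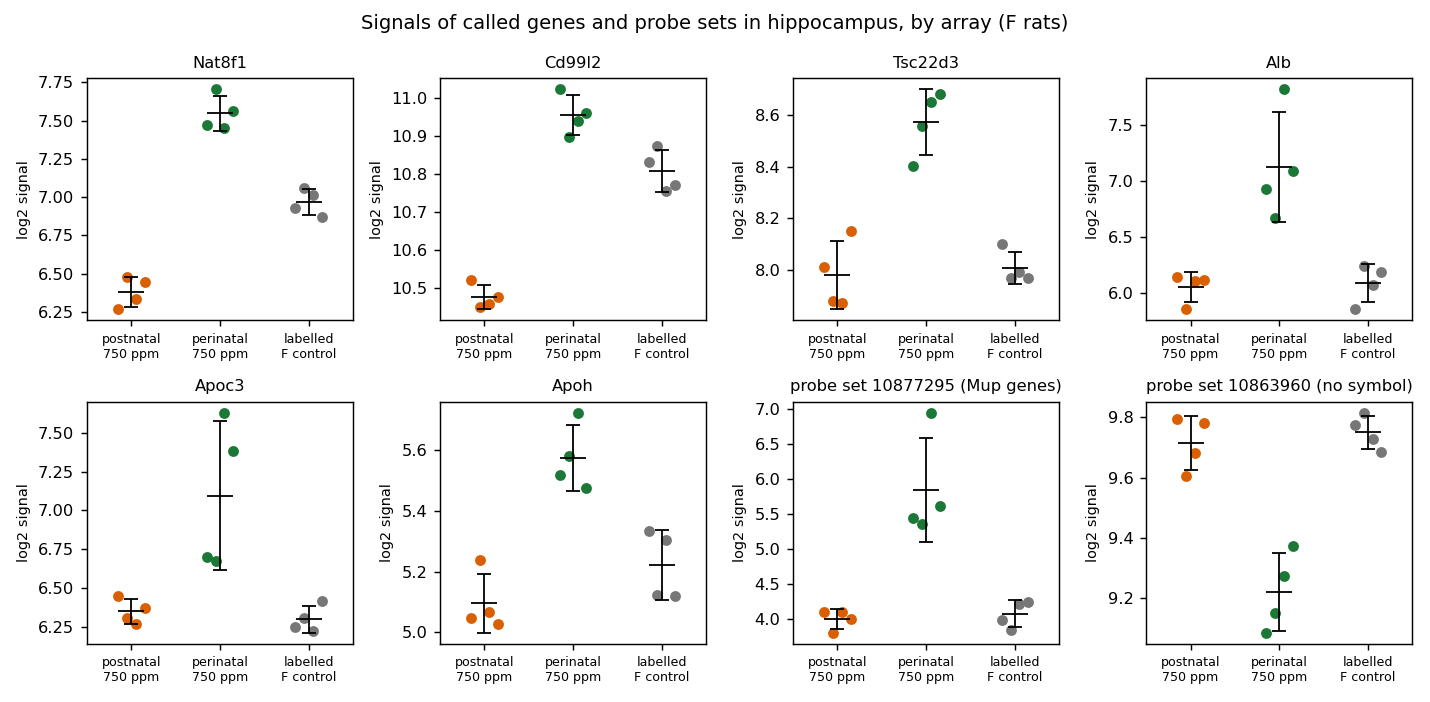
Log2 signal of 6 called genes and 2 called probe sets, by array, in postnatal 750 ppm, perinatal 750 ppm and labelled F control rats. Points are arrays, the long bar is the mean and the short bars 1 SD (n = 4 each), and the vertical axes differ and do not start at 0. The postnatal and perinatal points do not overlap in any panel.

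Of the transcripts that the liver makes in bulk, 3 were called lower postnatally, and for albumin the perinatal arrays stood above every other F array. Alb, which encodes serum albumin, read 6.14, 5.86, 6.11 and 6.11 on postnatal arrays, against 6.92, 6.66, 7.82 and 7.09 on perinatal arrays and 5.86, 6.24, 6.07 and 6.18 on labelled F controls. The postnatal values lay among the controls, and perinatal replicate 3 was the highest. The difference was -1.07 (SE 0.14, adjusted p = 2.76e-05), 2.10-fold lower. Apoc3, which encodes an apolipoprotein that slows triglyceride clearance, read 6.45, 6.31, 6.27 and 6.37 postnatally and 6.70, 6.68, 7.63 and 7.38 perinatally, a difference of -0.75 (SE 0.13, adjusted p = 0.00424). Perinatal replicates 3 and 4 were the high ones, and without replicate 4 the adjusted p was 0.0581. Apoh, which encodes the phospholipid-binding plasma protein beta-2-glycoprotein I, read 5.05, 5.24, 5.07 and 5.03 postnatally and 5.52, 5.58, 5.72 and 5.48 perinatally, a difference of -0.48 (SE 0.09, adjusted p = 0.00976). Its call was lost without perinatal replicate 3 (adjusted p = 0.0879) and without postnatal replicate 1 (0.0644), 3 (0.0599) or 4 (0.0697).

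Of the 14 liver plasma protein genes measured, 11 lay below 0, against 53.8% of all genes, with a median of -0.21. In that list 3 were called lower, against 0.0414% of all genes. Gc, the vitamin D binding protein, differed by -0.56 (adjusted p = 0.3) and Ahsg, fetuin A, by -0.34 (adjusted p = 0.452), and neither passed. The apolipoprotein genes Apoa1 and Apoa2 and the haemoglobin scavenger gene Hp lay at 0.02 to 0.08, so the list did not move as a whole. The mean of the 14 genes lay at 5.65 to 5.67 on postnatal arrays, 5.81 to 6.23 on perinatal arrays and 5.66 to 5.73 on labelled F controls. In the fit of the 8 arrays alone none of the 3 calls held, with adjusted p of 0.197 for Alb, 0.462 for Apoc3 and 0.159 for Apoh. Without perinatal replicates 3 and 4, the arrays of highest Alb, Apoc3 differed by -0.34 (adjusted p = 0.685) and Apoh by -0.45 (adjusted p = 0.248), while 12 of the 14 lay below 0.

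The Mup probe sets, for carriers of urinary pheromones made in rodent liver, followed the same arrays. Each is shared by several Mup genes, so no single gene can be named. Probe set 10877295 read 4.10, 3.81, 4.10 and 4.0 postnatally, against 5.44, 5.36, 6.94 and 5.62 perinatally and 3.99, 3.85, 4.22 and 4.25 in the labelled F controls. Postnatal arrays overlapped the controls, and perinatal replicate 3 stood far above its own group. The measured difference was -1.84 (SE 0.18, adjusted p = 6.91e-08), and that of 10877286 was -1.83 (SE 0.19, adjusted p = 1.74e-07). Postnatal values this low were not shown to be above background, and perinatal replicate 3 raised both differences, so their size is uncertain. Of 11 such probe sets, 5 were called lower, against 0.0479% of all probe sets, and 10 lay below 0, with a median of -0.47. They share genes and were read on the same arrays, so they are not 11 separate observations. Away from the perinatal arrays these are dim: 10877295 was at the 12.2th percentile of mean signal, and the 10th percentile was a log2 signal of 3.92. In the fit of the 8 arrays alone no Mup call held (adjusted p = 0.0899 for 10877295), and 10877268, the weakest of the 5 (-0.73, adjusted p = 0.0387), was lost without any of the 4 postnatal replicates (adjusted p = 0.0697 to 0.146) or perinatal replicate 3 (0.0972). The part of liver RNA or of other tissue in these signals was not tested.

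**Figure D2:**
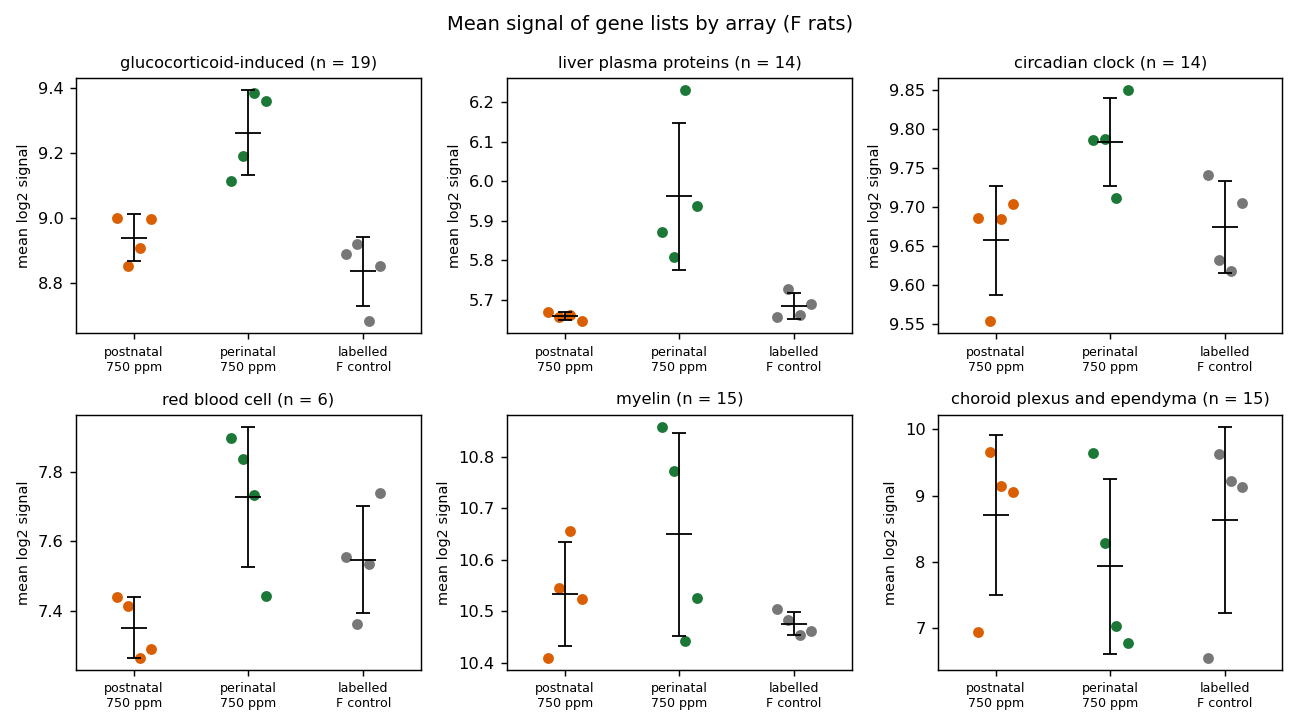
Mean log2 signal over the measured members of 6 gene lists, by array, in postnatal 750 ppm, perinatal 750 ppm and labelled F control rats. Points are arrays, the long bar is the mean and the short bars 1 SD (n = 4 each), and the vertical axes differ. Glucocorticoid-induced, liver, circadian clock and red blood cell means do not overlap between postnatal and perinatal arrays, the clock and red blood cell means only narrowly. Myelin means overlap, and choroid plexus means run from 6.95 to 9.66 in the postnatal and from 6.78 to 9.64 in the perinatal group.

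Blood and choroid plexus can both be carried along in a hippocampal dissection. Of 6 measured red blood cell genes, 5 lay below 0 (median -0.41) and none was called. An unadjusted p under 0.05 was reached by 3 of the 6, against 5.31% of all genes. The mean of the 6 lay at 7.265 to 7.441 postnatally and 7.443 to 7.897 perinatally, narrowly without overlap. Labelled F controls, at 7.36 to 7.74, overlapped both groups. Ahsp, the chaperone of alpha globin, read 4.05, 4.04, 4.26 and 4.21 postnatally and 5.12, 5.47, 4.91 and 4.53 perinatally. Those did not overlap, but the difference of -0.87 did not pass (SE 0.23, adjusted p = 0.27). The globin gene Hbb differed by -0.44 (SE 0.19, adjusted p = 0.88). In replicate order, Hbb read 11.09, 10.75, 10.44 and 10.68 on the postnatal arrays and 11.52, 11.22, 11.15 and 10.82 on the perinatal arrays. Any link of blood to the liver and Mup signals was not tested.

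All 15 choroid plexus and ependyma genes lay above 0, with a median of 0.86, and none had even an unadjusted p under 0.05. Their mean was 6.95, 9.66, 9.15 and 9.06 on the postnatal arrays, 9.64, 8.29, 7.03 and 6.78 on the perinatal arrays, and 6.55, 9.63, 9.22 and 9.14 on labelled F controls. Postnatal replicate 1, perinatal replicates 3 and 4 and control replicate 1 were low, and the others high. Kl, the klotho gene, differed by 1.35 with an SE of 1.14, and Ttr, the thyroid hormone carrier transthyretin, read 9.16 to 13.49 postnatally and 9.48 to 13.38 perinatally. Without perinatal replicates 3 and 4, 1 of the 15 lay above 0, so the direction rested on those arrays. With the choroid plexus mean as a covariate 14 probe sets were called, all 14 among the 16. The perinatal arrays lowest in choroid plexus genes, replicates 3 and 4, were also the highest in Apoc3 and in Alb. Postnatal replicate 1 and control replicate 1, low in choroid plexus genes too, read 6.14 and 5.86 for Alb and 6.45 and 6.25 for Apoc3. Whether choroid plexus content is linked to these signals was not tested.

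**Figure D3:**
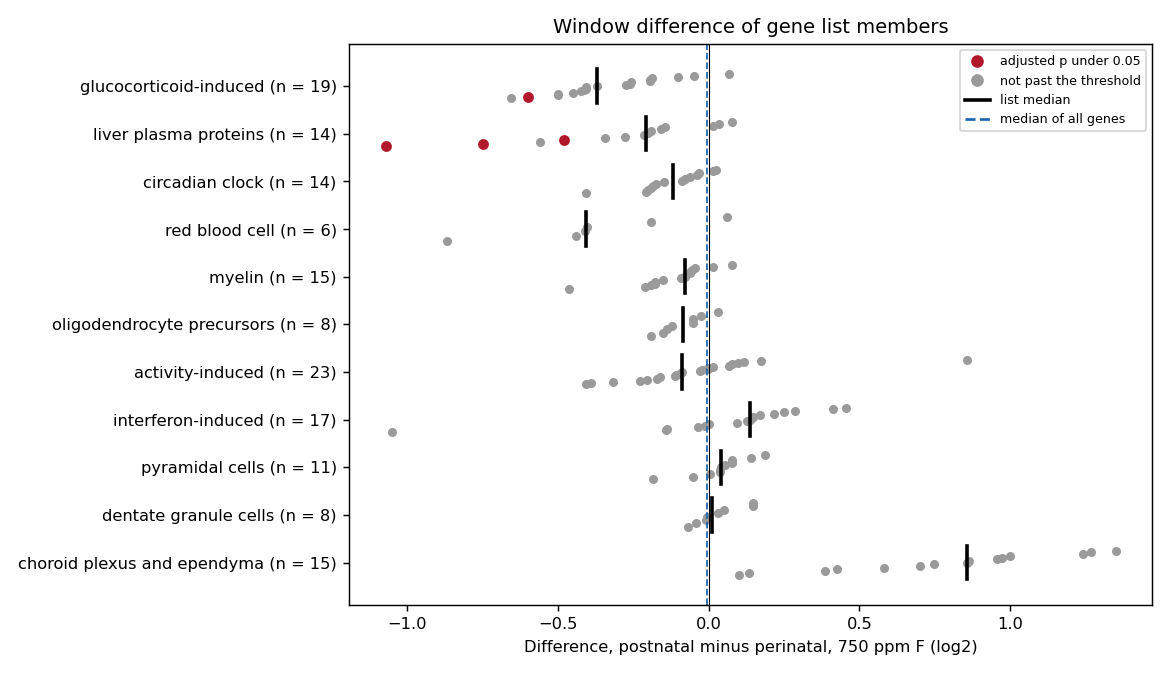
Difference of each measured member of 11 gene lists, postnatal minus perinatal in 750 ppm F rats (log2), with red points for genes past the threshold. Black bars are list medians and the dashed line the median of all genes, -0.01. Glucocorticoid-induced members sit left of it except Lcn2, and choroid plexus members sit right of it.

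Clock genes leaned low without a call. Of 14 measured, 12 lay below 0 (median -0.12), against 53.8% of all genes. An unadjusted p under 0.05 was found for 6, against 5.31% of all genes. Per1 counts here as well as among the glucocorticoid-induced genes. Dbp, an output transcription factor of the clock, read 11.40, 11.36, 11.40 and 11.33 postnatally and 11.67, 11.64, 11.41 and 11.53 perinatally, a difference of -0.19 (SE 0.06, adjusted p = 0.446). The groups did not overlap, though perinatal replicate 3 lay next to the postnatal values. Nr1d1, which encodes the repressor REV-ERB alpha, differed by -0.18 (adjusted p = 0.736) and Per2 by -0.21 (adjusted p = 0.817), while the core activators Bmal1 and Clock lay at 0.02 and -0.06.

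Of 15 myelin genes 13 lay below 0 (median -0.08), against 53.8% of all genes. An unadjusted p under 0.05 was found for 4, against 5.31% of all genes, and none was called. Enpp6, a choline phosphodiesterase of newly formed oligodendrocytes, read 7.81, 7.63, 7.89 and 7.81 postnatally, against 8.60, 8.33, 7.94 and 8.12 perinatally and 7.81 to 7.90 in labelled F controls. Its groups did not overlap, and the difference was -0.46 (SE 0.13, adjusted p = 0.298). The structural myelin genes differed less, with Mbp, myelin basic protein, at -0.08 and the myelin proteolipid gene Mal at -0.21 (adjusted p = 0.959). Perinatal replicates 1 and 2 were the high ones for the list, with a mean of 10.86 and 10.77 beside 10.44 and 10.53, and postnatal means lay at 10.41 to 10.66. Among 8 precursor genes, 7 lay below 0 with a median of -0.09, and among 12 astrocyte genes, 9 with a median of -0.04. Gjb6, the astrocyte connexin 30, read 9.49 to 9.74 postnatally and 9.80 to 10.14 perinatally, a difference of -0.31 that did not pass (SE 0.09, adjusted p = 0.468).

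Genes that lead is known to touch through metal handling and synapses showed no call. Of 11 metallothionein and zinc transport genes, 7 lay below 0 (median -0.03). Mt2A, a metallothionein that binds zinc and toxic metals, read 12.75, 12.56, 12.83 and 12.75 postnatally and 12.83, 12.85, 13.02 and 12.94 perinatally, a difference of -0.19 (SE 0.07, adjusted p = 0.817), and Mt1 differed by -0.05 (SE 0.09). Of 20 iron, copper and heme genes, 10 lay on each side of 0. Uros, an enzyme of heme synthesis, differed by 0.27 (SE 0.15) and Fech, the ferrochelatase that lead is known to inhibit, by -0.13 (SE 0.07). Of 16 glutamate receptor genes, 10 lay above 0 with a median of 0.03. Grin2b, an NMDA receptor subunit prominent early in development, read 11.58 to 11.63 postnatally and 11.41 to 11.55 perinatally, a difference of 0.12 (SE 0.04, adjusted p = 0.519). Pyramidal cell genes (median 0.04 over 11) and dentate granule cell genes (median 0.01 over 8) lay near 0.

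On the higher side, the called features were 2 probe sets with no symbol. Probe set 10863960 read 9.79, 9.61, 9.68 and 9.78 postnatally, against 9.08, 9.15, 9.27 and 9.37 perinatally and 9.77, 9.81, 9.73 and 9.69 in labelled F controls. Postnatal arrays overlapped the controls and perinatal arrays lay below them, and the difference was 0.50 (SE 0.08, adjusted p = 0.00169). Probe set 10768826 differed by 0.65 (SE 0.11, adjusted p = 0.00424), and was lost without perinatal replicate 4 (adjusted p = 0.0581). In the 8 arrays alone these had adjusted p of 0.0534 and 0.225. In the other direction 10700576, without a symbol, read 6.26, 6.66, 5.96 and 6.39 postnatally, against 7.99, 8.17, 7.83 and 7.84 perinatally and 6.80, 6.67, 7.11 and 6.69 in labelled F controls. Perinatal arrays stood above every control, and the difference of -1.64 (SE 0.16, adjusted p = 6.91e-08) held in the 8 arrays alone.

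No gene with a symbol passed on the higher side, and the 6 of smallest p were Rasl11a, Zdhhc23, Gbp5, Nat8b, Nmbr and Prss35. Rasl11a, a small GTPase of the Ras family, read 8.19, 7.98, 7.87 and 7.97 postnatally and 7.43, 7.72, 7.67 and 7.50 perinatally, a difference of 0.42 (SE 0.09, adjusted p = 0.064), and labelled F controls, at 7.90 to 7.98, lay among the postnatal values. Zdhhc23, a palmitoyltransferase, read 9.44 to 9.51 postnatally and 9.13 to 9.36 perinatally, a difference of 0.23 (SE 0.05, adjusted p = 0.0898). Nmbr, the neuromedin B receptor, read 8.63, 8.57, 8.27 and 8.34 postnatally and 7.47, 7.51, 7.84 and 7.81 perinatally, a difference of 0.79 (SE 0.21, adjusted p = 0.279). Its labelled F controls split, at 8.35, 7.53, 7.46 and 7.44. Gbp5, an interferon-induced GTPase, differed by 0.31 (adjusted p = 0.236) and Prss35, of the serine protease family, by 0.32 (adjusted p = 0.3). Interferon-induced genes lay above 0 in 12 of 17 (median 0.14) with no call, and Ifit1, a sensor of foreign RNA, went the other way, at 4.88, 4.63, 4.65 and 4.79 postnatally and 5.67, 6.15, 5.38 and 5.95 perinatally. Its groups did not overlap, and the difference of -1.05 missed the threshold (SE 0.22, adjusted p = 0.0524).

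The window difference was then set against that of M rats at 750 ppm. The interaction, the F difference minus the M difference, was called for 22 probe sets (0.0753%), 5 higher (0.0171%) and 17 lower (0.0582%), of which 9 were among the 16, and 16.0% of probe sets had an unadjusted p under 0.05. In M rats alone the window difference was called for 51 probe sets (0.175%). There 19.4% of probe sets had an unadjusted p under 0.05, against 5.07% for the window difference in F rats. The M perinatal arrays included 1 with flattened signal, and without the 3 such arrays of the series the interaction calls were 12 in place of 22. Nat8f1 differed in opposite directions. In M rats it read 6.95, 6.37, 7.02 and 6.91 postnatally and 5.97, 6.43, 6.25 and 6.14 perinatally, a difference of 0.62 (SE 0.13, adjusted p = 0.0306), so the interaction was -1.78 (SE 0.18, adjusted p = 4.67e-07). Tsc22d3 read 8.04, 8.10, 8.13 and 8.50 in postnatal M rats and 7.85, 8.01, 7.94 and 7.83 in perinatal M rats, a difference of 0.28 that did not pass by itself (adjusted p = 0.174), with an interaction of -0.88 (SE 0.15, adjusted p = 0.00639). Of the 19 glucocorticoid-induced genes, 3 lay below 0 in M rats, with a median of 0.10, against 18 and -0.37 in F rats, and the interaction was called for Tsc22d3 alone.

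Alb in M rats read 6.21, 6.14, 6.19 and 6.31 postnatally and 6.03, 6.03, 5.96 and 6.07 perinatally, a difference of 0.19 that did not pass (SE 0.14, adjusted p = 0.444), which gave an interaction of -1.26 (SE 0.20, adjusted p = 0.00129). It was the 1 liver gene above 0 in M rats, where 13 of the 14 lay below 0, with a median of -0.15 and no call, against 11 of 14 and -0.21 in F rats, and the interaction was called for Alb alone among them. In the fit of the compared groups only, the interaction of Alb did not pass. Alas2, the erythroid enzyme that starts heme synthesis, was higher postnatally in M rats, at 8.54, 8.72, 7.95 and 8.38 against 7.48, 7.32, 7.61 and 7.43, by 0.94 (SE 0.17, adjusted p = 0.00721). In F rats its difference was -0.40 and did not pass, and the interaction was -1.34 (SE 0.24, adjusted p = 0.00794). Ahsp had an interaction of -1.53 (SE 0.33, adjusted p = 0.0498), which missed the threshold in 14 of the 16 fits without 1 array. Zdhhc23 was the gene with a positive interaction, 0.38 (SE 0.07, adjusted p = 0.025), its M arrays reading 9.19 to 9.42 postnatally and 9.38 to 9.50 perinatally. The M perinatal arrays belonged to a number range of their own, so window and range cannot be told apart in M rats either. The F and M differences thus crossed different ranges, and sex and number range cannot be told apart in the interaction.

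At 250 ppm in F rats, where both windows lay within 1 number range, the window difference was called for 3 probe sets (0.0103%), none of them among the 16. The dose interaction, the difference at 750 ppm minus that at 250 ppm, was called for 9 probe sets (0.0308%). Of these, 2 were higher (0.00685%) and 7 lower (0.024%), and 6 were among the 16. Only the 750 ppm difference crossed number ranges, so dose and number range cannot be told apart in this interaction. For Nat8f1 the 250 ppm arrays read 6.73, 6.88, 7.18 and 6.80 postnatally and 6.93, 6.82, 7.26 and 6.48 perinatally, overlapping throughout with a difference of 0.02 (SE 0.13). Its interaction with dose was -1.19 (SE 0.18, adjusted p = 0.00118). Alb differed by 0.13 at 250 ppm and had a dose interaction of -1.20 (SE 0.20, adjusted p = 0.00246). In the fit of the compared groups only, that interaction of Alb did not pass. The probe sets 10877295 (-1.82), 10877286 (-1.78), 10700576 (-1.40) and 10863690 (-0.88) made up the other 4, each with an adjusted p of at most 0.00246. For Cd99l2 the difference at 250 ppm was -0.20, the same sign, with a dose interaction of -0.28 (adjusted p = 0.804). For Tsc22d3 it was -0.12, with an interaction of -0.48 (adjusted p = 0.676), and neither interaction passed. Glucocorticoid-induced genes lay below 0 in 15 of 19 at 250 ppm, with a median of -0.16 and no call.

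**Figure D4:**
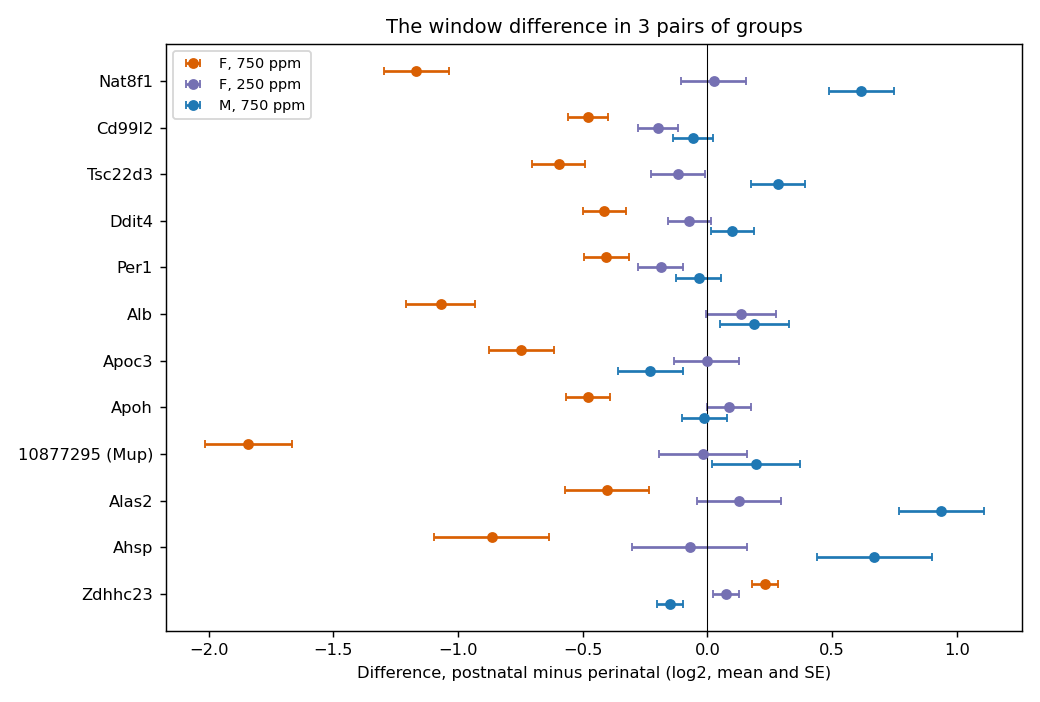
Postnatal minus perinatal difference (log2) of 11 genes and 1 Mup probe set in F rats at 750 ppm, F rats at 250 ppm and M rats at 750 ppm. Points are the fitted differences and bars 1 SE, from 4 arrays in each group. Nat8f1 lies at -1.17 in F rats at 750 ppm, 0.02 at 250 ppm and 0.62 in M rats.

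Across all 10 groups of the series, Nat8f1 had its highest mean in the perinatal 750 ppm F rats. It averaged 7.55 ± 0.11 there, against 6.38 ± 0.10 in the postnatal 750 ppm F rats (SD, n = 4 each). The perinatal 750 ppm M rats had the lowest mean, 6.20 ± 0.19, and overlapped the postnatal F rats, while the means of the other 7 groups lay between 6.75 and 6.97, closer together than the spread within several of them. Alb averaged 7.12 ± 0.49 in the perinatal 750 ppm F rats, against 6.05 ± 0.13 in the postnatal 750 ppm F rats, and the other 8 group means lay between 5.91 and 6.21. Tsc22d3 averaged 8.57 ± 0.13 in the perinatal 750 ppm F rats, and the next highest mean was 8.19 ± 0.21 in the postnatal 750 ppm M rats, with 1 of those M arrays, at 8.50, inside the perinatal F range. Cd99l2 ran from 10.48 ± 0.03 in the postnatal 750 ppm F rats, where the postnatal 750 ppm M rats also lay (10.48 ± 0.09), to 10.96 ± 0.05 in the perinatal 750 ppm F rats, with neighbouring groups overlapping along that order.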

How the data were processed

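The authors' deposited values are log2 signals, made with RMA and Partek per the submitters' processing notes (versions and settings not given in the sources used here); RMA corrects background, gives the arrays a common distribution and summarises probes. Per the labels' protocols, RNA was extracted with Qiagen miRNeasy kits. Values were used as deposited; a probe's brightness also depends on its sequence, so levels were compared between arrays and not between genes, and a percentile of signal says only how dim a probe set is. Of 29214 probe sets, 15310 carried 1 symbol; 14506 genes were represented by their probe set of highest mean. Another 319 probe sets repeat another's values, none of them called. A limma 3.58.1 model (R 4.3.3) with 10 group means over 40 arrays and a variance trend gave the window difference and its sex and dose interactions, with two-sided p-values adjusted by Benjamini-Hochberg over all probe sets. The test was checked on simulated data.

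Members, the 31 gene lists (426 measured genes) and tests were chosen with earlier results of these data known. Genes named were the called ones whose groups did not overlap, the 6 of smallest p in a direction with fewer, up to 3 of smallest p per list, up to 3 called per direction of each interaction, and some named in earlier results; others were named as list members to show a range. Lists were described by counts and medians, without a test. No batch is named in the labels. Alternatives were a fit of the compared groups, no variance trend, array weights, further quantile normalization, leaving out the dimmest 40% of probe sets, liver and Mup probe sets, flattened or mismatched arrays, or each array, and a choroid plexus covariate. The number of arrays limits the precision. Figures used matplotlib 3.10.9.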

Additional observations from a re-analysis of the deposited data

Results flagged for a closer look

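An array that lay far from the other 3 of its group was found in 15 of 244 groups of 4 tested (6.15%, where chance alone flags about 5%). In 5 of them it was perinatal replicate 3, which stood high in Mup probe sets: 5.38 for 10877229 (next 4.57), 5.36 for 10877268 (next 4.35), 7.35 for 10877286 (next 6.01), 6.94 for 10877295 (next 5.62) and 4.77 for 10877313 (next 4.11). Without that array 10877268 had an adjusted p of 0.0972. The same array read 6.70 for Nat8b (next 6.55) and 7.44 for Blvrb, biliverdin reductase B, below a next value of 7.80. Perinatal replicate 2 was low for the dopamine receptor gene Drd2 (7.68, next 7.78), and perinatal replicate 1 for the lipid droplet gene Ldaf1 (8.32, next 8.88).

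Postnatal replicate 2 was low for Alb (5.86, next 6.11) and for 10877229 (3.79, next 4.04). Postnatal replicate 1 was high for the quinone reductase Nqo1 (7.68, next 7.55) and for 10877262 (3.98, next 3.78). Postnatal replicate 3 was low for Sox11, of immature neurons (8.40, next 8.56), and for the apolipoprotein Apoe (12.32, next 12.41).

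Among the named genes and probe sets, the interaction of window and sex was called for 11, of which Ahsp missed the threshold in most fits without 1 array. The F and M differences crossed different number ranges, so sex and number range cannot be told apart in this interaction. The interaction was -2.09 for 10877286, -2.04 for 10877295, -1.78 for Nat8f1, -1.72 for 10700576, -1.53 for Ahsp, -1.34 for Alas2, -1.26 for Alb, -1.02 for 10877229, -0.88 for Tsc22d3, -0.85 for 10877251 and 0.38 for Zdhhc23. The window difference differed between 750 and 250 ppm in F rats for 6, where dose and number range cannot be told apart. That interaction was -1.82 for 10877295, -1.78 for 10877286, -1.40 for 10700576, -1.20 for Alb, -1.19 for Nat8f1 and -0.88 for 10863690.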

How the results depend on the processing

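The 16 calls of the window difference became 34 with array weights, 7 in the fit of the compared groups only, 8 without the dimmest 40% of probe sets, 7 without liver and Mup probe sets, and 10 without perinatal 750 ppm F replicates 3 and 4, an alternative chosen after seeing the data. They were 14 with the choroid plexus covariate, 15 without a variance trend, 17 without the flattened arrays, 17 without the mismatched controls, 22 after further quantile normalization and 12 to 20 without 1 array. The 22 sex interaction calls became 57 with array weights, 14 in the compared groups only, 13 without liver and Mup probe sets, 12 without the flattened arrays and 14 without the dimmest 40%. Without 1 array they were 10 to 50: 50 without perinatal M replicate 2, 13 without perinatal M replicate 4, 11 without perinatal M replicate 1, 11 and 13 without postnatal M replicates 1 and 4, 10 and 12 without postnatal F replicates 3 and 4, and 11 without perinatal F replicate 2. The 9 dose interaction calls became 15 with array weights, 15 with the choroid plexus covariate, 16 in the compared groups only, 20 after quantile normalization and 16 without the mismatched controls. Without 1 array they were 6 to 17, with 16 without postnatal 250 ppm F replicate 4 and 17 without perinatal 750 ppm F replicate 2. Of the 16 window calls, 8 were liver or Mup probe sets, so the fit without those could not call them. Alb, Apoh and the 5 called Mup probe sets lay at the 8.36th to 38.4th percentile of mean signal. The fit without the dimmest 40% therefore could not call them. Fits without probe sets or arrays also tested fewer of them, and the cause of the remaining shifts was not tested. Among named genes the sign turned for 10877262 (main 0.00), at -0.0045 with array weights, -0.0321 after quantile normalization and -0.0523 to 0.0342 without 1 array, and for Mt1, between -0.0916 and 0.0002 without 1 array. Without perinatal replicates 3 and 4 it turned for F5 (-0.0499), Kl (-0.20), Sostdc1 (-0.21), Mt1 (0.0132) and Nr3c1 (-0.0221). In the compared groups only, the sex interaction of Alb had an adjusted p of 0.07 and its dose interaction 0.147. No paired analysis was possible because the titles number the animals consecutively and replicate numbers were given in accession order, so they pair no arrays.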

Other observations

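Genes marking neighbouring brain regions leaned low in the postnatal group. Of 11 thalamus, habenula and striatum genes, 9 lay below 0 (median -0.13) and none was called. Rgs16, a regulator of G protein signalling, read 8.04 to 8.22 postnatally and 8.32 to 8.51 perinatally, a difference of -0.26 (SE 0.07, limma adjusted p = 0.256), and the dopamine receptor genes Drd1 and Drd2 each differed by -0.20. The list mean lay at 7.86 to 7.93 on postnatal arrays, 7.94 to 8.11 on perinatal arrays and 7.76 to 7.95 on labelled F controls. The part of dissection in this was not tested. Sox11, a transcription factor of immature neurons, read 8.40 to 8.58 postnatally and 8.70 to 8.92 perinatally, a difference of -0.28 that did not pass (SE 0.07, adjusted p = 0.18), while 8 of 12 neurogenesis and proliferation genes lay above 0 (median 0.07).

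Activity-induced genes lay below 0 in 16 of 23 (median -0.09), against 53.8% of all genes. Their differences ran from -0.41 to 0.86, so the largest was upward, and 4 of the 23 had an unadjusted p under 0.05. Dusp5, a phosphatase of MAP kinases, read 8.25 to 8.51 postnatally and 8.62 to 8.88 perinatally (difference -0.39, adjusted p = 0.281), and the nuclear receptor gene Nr4a2 differed by -0.32 (adjusted p = 0.643). Heat shock and chaperone genes lay below 0 in 14 of 21 (median -0.02), antioxidant and glutathione genes in 14 of 22 (median -0.04), with Nqo1 at -0.22 (adjusted p = 0.947), and interneuron and neuropeptide genes in 12 of 17 (median -0.06), with Vip, vasoactive intestinal peptide, at -0.31 (adjusted p = 0.774). Microglial genes split evenly (6 of 12 below 0, median 0.02), as did DNA methylation genes (6 of 11), and endothelial and mural genes lay above 0 in 11 of 17 (median 0.04). None of these lists held a call. Fcrl2, an Fc receptor-like gene, differed by -0.61 (adjusted p = 0.578) in F rats at 750 ppm and by -1.20 (adjusted p = 0.00422) in M rats at 750 ppm, with a sex interaction of 0.59 (adjusted p = 0.302). Ldaf1, a lipid droplet assembly gene, differed by 0.15 between the windows (SE 0.13), and both exposed groups lay above the labelled F controls, at 8.81 to 9.03 postnatally and 8.32 to 8.95 perinatally against at most 8.28.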
